A study of Mus musculus with 10 samples.

Results

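A set of 10 genes of fibroblast growth factor (FGF) signaling was examined in primary adipocytes from mice with a floxed Fam20c gene, which encodes a secretory kinase, with and without Cre. They were the ligands Fgf1, Fgf2, Fgf7, Fgf10 and Fgf21, the receptors Fgfr1, Fgfr2, Fgfr3 and Fgfr4, and Klb, which encodes the co-receptor beta-klotho. They were taken by gene symbol, and all 10 were among the 56748 genes of the count table. Of these 10, 9 passed the filter on low counts, as did 14270 genes in all, while Fgfr4 did not.

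The libraries were made from inguinal stromal vascular cells that had been taken through adipogenic differentiation in culture. Control cells (n = 5 libraries) carried the Fam20c-flox genotype without Cre, and KO cells (n = 5 libraries) carried Fam20c-flox together with Adipoq-Cre, so both groups held the floxed allele. By the study's methods, donors were male mice 6 to 8 weeks old, backcrossed to C57BL/6J, and cells were differentiated for 6 to 8 days with isobutylmethylxanthine, dexamethasone, insulin and rosiglitazone, a PPARγ agonist, in both groups. The Adipoq promoter drives Cre in cells that have begun to express adiponectin, so undifferentiated cells of a culture would keep Fam20c. The part of such cells in the Fam20c counts of the KO libraries was not tested. The labels do not say whether each library came from its own animal or culture, so the p-values below measure the spread between these libraries, which may be partly technical.

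FGF ligands act through 4 receptor tyrosine kinases that signal to the MAP kinases, PI3 kinase and phospholipase C gamma. Fgf1, Fgf2, Fgf7 and Fgf10 encode paracrine ligands that are held near their source by heparan sulfate on syndecans, glypicans and perlecan, whereas Fgf21 encodes an endocrine ligand that binds heparan sulfate weakly and needs beta-klotho beside an FGF receptor. In adipose tissue Fgf10 is known for its expression in mesenchymal progenitors and its part in adipocyte differentiation, and Fgf21 for its action on adipocytes through Fgfr1 and Klb. Fgf1 in adipose tissue is known as a gene responsive to feeding and to PPARγ.

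Fam20c itself stood at 8.85 to 11.8 counts per 1000000 (CPM) in Control and 6.64 to 7.73 CPM in KO, with all KO libraries below all Control libraries (log2 fold change -0.49, SE 0.0934, edgeR quasi-likelihood test, Benjamini-Hochberg adjusted p = 0.0121). Library totals were 18949106 to 26237825 counts in Control and 19883101 to 23291792 in KO, so 3 counts in a library corresponded to 0.112 to 0.157 CPM. Libraries Control 4 and KO 1 stood apart from the other libraries along the first principal component of all tested genes (23.5% of the variance), at scores of 21.7 and 24.2 against -14.8 to 8.59 for the other 8. Therefore each tested FGF gene was also fitted without this pair. Of the 6 adipocyte markers, all were detected, and their summed level was 26564 to 27560 CPM in Control and 27760 to 29930 CPM in KO, most of it from the fatty acid binding protein gene Fabp4. The 6 epithelial markers summed to at most 0.351 CPM in any library, and Pax7 was at 0 counts in all 10.

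Among the FGF genes, 1 of the 9 tested was lower in KO at an adjusted p under 0.05, against a background of 1.85% of all tested genes called lower, and 0 were higher, against 0.308% called higher. In either direction the background was 2.16%. The gene called was Fgf10, which fell by 16.4%. Fgf21 and Klb had estimates above 0 that did not pass the test, the estimates of Fgfr1 and Fgfr2 were close to 0, and the transcripts of Fgf1 and Fgfr3 were rare. The median log2 fold change of the 9 genes was 0.013, and that of all genes tested was -8.5e-04. By the same edgeR test, 3 of the 9 (Fgf10, Fgf21 and Fgfr3) had an unadjusted p under 0.05, as did 1682 of all 14270 genes.

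The sequence upstream of the RefSeq transcript start is shown for Fgf10, the gene that fell, and for Fgf21, the ligand with the next smallest p, whose estimate had the opposite sign. Each run is the 250 bases before the RefSeq transcript start on GRCm38.p6, 5′ to 3′ on the gene's strand, with motif matches in capitals. The Fgf10 window directly precedes the start of the protein-coding transcript and lies inside the gene span given below, since GENCODE M21 also lists processed transcripts of Fgf10 that start farther upstream.
Fgf10, chr13:118714449-118714698, plus strand: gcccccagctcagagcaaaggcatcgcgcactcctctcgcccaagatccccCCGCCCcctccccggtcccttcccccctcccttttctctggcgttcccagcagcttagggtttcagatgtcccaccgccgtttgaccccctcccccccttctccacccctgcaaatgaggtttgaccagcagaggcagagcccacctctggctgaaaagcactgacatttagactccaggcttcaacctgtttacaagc
Fgf21, chr7:45615491-45615740, minus strand: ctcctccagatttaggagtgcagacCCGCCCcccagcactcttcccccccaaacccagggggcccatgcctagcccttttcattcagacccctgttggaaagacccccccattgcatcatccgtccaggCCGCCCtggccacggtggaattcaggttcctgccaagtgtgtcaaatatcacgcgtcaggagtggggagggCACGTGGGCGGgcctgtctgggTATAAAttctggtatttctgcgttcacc
The motifs searched, on both strands, were the nuclear receptor hexamer AGGTCA, the TATA box TATAAA, the CCAAT box, the GC box GGGCGG and the E-box CACGTG. The Fgf10 window held 1 GC box, beginning at -199 from the start. The Fgf21 window held a TATA box at -28, GC boxes at -225, -121 and -45, and an E-box at -50 that overlaps the last GC box. In all 32851 windows of this length, 32.7% held a GC box, 12.4% a TATA box, 6.02% an E-box, 33.8% a CCAAT box and 14% the hexamer. GC content was 61.2% in the Fgf10 window and 59.6% in the Fgf21 window, and the median over all windows was 52.4%. These matches describe the letters alone and were not tied to binding.

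Fgf10 (ENSMUSG00000021732, chromosome 13, 118669791 to 118792115, plus strand, GRCm38) encodes a paracrine ligand of the IIIb form of Fgfr2. Its levels in the Control libraries 1 to 5 were 124.1, 119.2, 117.9, 121.8 and 125.8 CPM. Its levels in the KO libraries 1 to 5 were 100.5, 99.7, 98.5, 105.9 and 104.2 CPM. All 5 KO libraries lay below all 5 Control libraries, a gap found in 2.66% of all tested genes, and the spread within each group was small, with a mean of 121.7 ± 3.31 (SD, n = 5) in Control and 101.7 ± 3.13 (SD, n = 5) in KO. The log2 fold change was -0.26 (SE 0.0372, 95% interval -0.34 to -0.18), with an edgeR adjusted p of 0.00164, the rank of the gene being 76 of 14270. A two-sided exact permutation test gave p = 0.00794, the smallest that 5 against 5 libraries can give. Without Control 4 and KO 1 the log2 fold change was -0.25 (adjusted p = 0.00347).

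Some markers of other cell types that such a culture can hold were also lower in KO, among the stromal progenitor and blood endothelial lists but not among the macrophage list. Of 8 stromal progenitor markers, 3 (Pdgfra, Cd34 and Lum) were called lower, against 1.85% of all tested genes, and 8 had estimates below 0, as had 7179 of the 14270 genes tested, with a summed level of 2788 to 3253 CPM in Control and 2386 to 2804 CPM in KO. Pdgfra, a receptor found on adipocyte progenitors, averaged 179.2 CPM in KO and was called lower, with all KO libraries below the Control minimum of 210.8 CPM. Of 10 blood endothelial markers, 9 were called lower, against the same 1.85%, and their summed level was 153.2 to 187.4 CPM in Control and 62.2 to 93.4 CPM in KO. Of 8 mural markers 7 were tested and 0 were called by edgeR. Of these 7, 3 had an unadjusted p under 0.05, as had 1682 of all 14270 genes tested. The mural list summed to 162.2 to 213.7 CPM in Control and 130.8 to 177.1 CPM in KO. Of 7 macrophage markers 0 were called and 0 had an unadjusted p under 0.05, with sums of 1255 to 1962 CPM in Control and 1112 to 1851 CPM in KO. The part of these cell types in the lower Fgf10 level was not tested, and in such bulk libraries fewer cells of a type and less RNA per cell cannot be told apart.

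**Figure D1:**
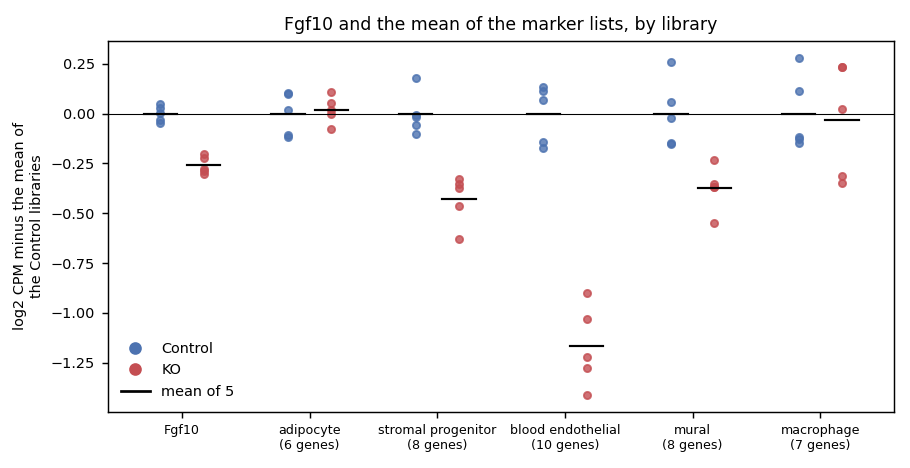
Log2 CPM of Fgf10 and the mean log2 CPM of 5 marker lists in each library, as the difference from the mean of the Control libraries (blue, Control; red, KO; bar, mean of 5). The KO points lie below every Control point for Fgf10 (log2 fold change -0.26) and for the stromal progenitor, blood endothelial and mural lists, and overlap the Control points for the adipocyte and macrophage lists. These means weigh rare and abundant genes alike. In summed CPM the stromal progenitor and mural lists overlapped between the groups, while the adipocyte list did not.

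Fgf21 (ENSMUSG00000030827, chromosome 7, 45613886 to 45615490, minus strand) encodes the endocrine ligand. It was counted in 216 to 350 fragments a library. Its levels in Control libraries 1 to 5 were 11.9, 11.2, 10.1, 12.8 and 10.2 CPM. Its levels in KO libraries 1 to 5 were 12.2, 11.7, 15.3, 15.7 and 13.2 CPM. The highest values were those of KO 3 and KO 4, while KO 1 and KO 2 lay within the Control range. The group means were 11.3 ± 1.12 (SD, n = 5) and 13.6 ± 1.78 (SD, n = 5), a log2 fold change of 0.28 (SE 0.0976, 95% interval 0.067 to 0.49) that did not pass the edgeR test (adjusted p = 0.232). The two-sided exact permutation test of this gene alone gave p = 0.0397 before any adjustment. Without Control 4 and KO 1 the log2 fold change was 0.36, with an adjusted p of 0.0666. The summed adipocyte markers, given above and mostly Fabp4, were higher in every KO library than in every Control library, unlike the Fgf21 levels, which overlapped. Their mean log2 CPM, which weighs the 6 alike, overlapped, at 9.01 to 9.23 in Control and 9.05 to 9.24 in KO. By edgeR 0 of the 6 was called and 2 had an unadjusted p under 0.05, as had 1682 of all 14270 genes tested. Of the 6 estimates 1, that of Lep, was below 0. The part of these markers in the Fgf21 values was not tested.

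Klb (ENSMUSG00000029195, chromosome 5, 65348314 to 65384007, plus strand) encodes the co-receptor that lets Fgf21 engage an FGF receptor. Its levels in Control libraries 1 to 5 were 82.5, 83.4, 74.2, 72 and 79.6 CPM. Its levels in KO libraries 1 to 5 were 73.3, 90.4, 83.1, 91.6 and 89.6 CPM. KO 2, KO 4 and KO 5 exceeded every Control library, KO 3 lay within the Control range and KO 1 was close to the lowest Control value. The log2 fold change was 0.13 (SE 0.0645, 95% interval -0.011 to 0.27), and it did not pass the test (edgeR adjusted p = 0.481; two-sided exact permutation p = 0.135). Without Control 4 and KO 1, which held the lowest Klb level of their groups, it was 0.15 (adjusted p = 0.125).

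Of the receptors, Fgfr1 (ENSMUSG00000031565, chromosome 8, 25513654 to 25575718, plus strand), the main partner of beta-klotho in adipocytes, was the most abundant. Its levels in Control libraries 1 to 5 were 176.0, 175.4, 194.4, 230.1 and 190.2 CPM. Its levels in KO libraries 1 to 5 were 227.6, 201.3, 196.3, 187.1 and 205.3 CPM. Control 4 and KO 1 held the highest level of their groups, and the groups overlapped. The log2 fold change was 0.075 (SE 0.0743, edgeR adjusted p = 0.802), with a 95% interval of -0.086 to 0.24. It was 0.15 without Control 4, 0.035 without KO 1 and 0.10 without both (adjusted p = 0.305 for the last).

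Fgfr2 (ENSMUSG00000030849, chromosome 7, 130162451 to 133123350, minus strand), whose IIIb form is the receptor of Fgf7 and Fgf10, was counted in 340 to 474 fragments a library. Its levels in Control libraries 1 to 5 were 20.7, 17.8, 16.02, 18.4 and 17.02 CPM. Its levels in KO libraries 1 to 5 were 19.8, 19.5, 18.01, 16.02 and 17.3 CPM, within the range of Control. The log2 fold change was 0.013 (SE 0.0790, edgeR adjusted p = 0.981), with a 95% interval of -0.16 to 0.18 (log2 fold change -0.0092 without Control 4 and KO 1). That interval does not reach the -0.26 of Fgf10 (95% interval -0.34 to -0.18), but Fgfr2 and Fgf10 were not tested against each other. The counts were per gene and do not separate the IIIb from the IIIc form.

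Fgfr3 and Fgfr4 were rare or undetected. Fgfr3 (ENSMUSG00000054252, chromosome 5, 33721674 to 33737068, plus strand) was counted in 27, 24, 23, 20 and 11 fragments in Control libraries 1 to 5 and in 12, 10, 16, 15 and 14 in KO libraries 1 to 5. Of these, 4 of the 5 Control counts exceeded every KO count and that of Control 5 did not. The log2 fold change was -0.60 (SE 0.275, 95% interval -1.20 to -0.010) with an edgeR adjusted p of 0.412, and the exact two-sided permutation test gave p = 0.0952. Without Control 4 and KO 1 the log2 fold change was -0.58 (adjusted p = 0.423). Fgfr4 (ENSMUSG00000005320, chromosome 13, 55152640 to 55168759, plus strand) had 1 fragment in Control 2 and 0 in the other 9 libraries, and 0 counts allow a level of up to 0.157 CPM in the shallowest library, counting error only.

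The remaining ligands differed in abundance but were not called. Fgf2 (ENSMUSG00000037225, chromosome 3, 37348346 to 37410108, plus strand), a ligand of broad receptor range, stood at 24.2, 20.9, 23.5, 35.5 and 25.6 CPM in Control libraries 1 to 5. It stood at 31.2, 28.3, 18.7, 28.7 and 27.7 CPM in KO libraries 1 to 5. Control 4 was the highest of all and KO 3 the lowest, and the log2 fold change of 0.05 (SE 0.160, 95% interval -0.30 to 0.41) was smaller than the spread within either group (edgeR adjusted p = 0.957; log2 fold change 0.14 without Control 4 and KO 1). Fgf7 (ENSMUSG00000027208, chromosome 2, 126034658 to 126091185, plus strand), a stromal ligand of the IIIb form of Fgfr2 like Fgf10, stood at 12.1, 11.2, 17.6, 10.6 and 13.4 CPM in Control libraries 1 to 5. It stood at 10.1, 11.7, 10.99, 13.04 and 11.6 CPM in KO libraries 1 to 5. Control 3 was high and the other libraries of both groups overlapped, with a log2 fold change of -0.17 (SE 0.127, 95% interval -0.45 to 0.099, edgeR adjusted p = 0.684). It was -0.039 without Control 3 and -0.19 without Control 4 and KO 1.

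Fgf1 (ENSMUSG00000036585, chromosome 18, 38838673 to 38929472, minus strand), which binds all FGF receptors, was counted in 24, 21, 26, 56 and 25 fragments in Control libraries 1 to 5 and in 35, 22, 22, 22 and 20 in KO libraries 1 to 5. The highest value of each group was that of the library that stood apart, Control 4 at 2.70 CPM and KO 1 at 1.73 CPM. The log2 fold change was -0.29 (SE 0.318, 95% interval -0.98 to 0.40, edgeR adjusted p = 0.829); it was 0.086 without Control 4 and -0.11 without both libraries.

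**Figure D2:**
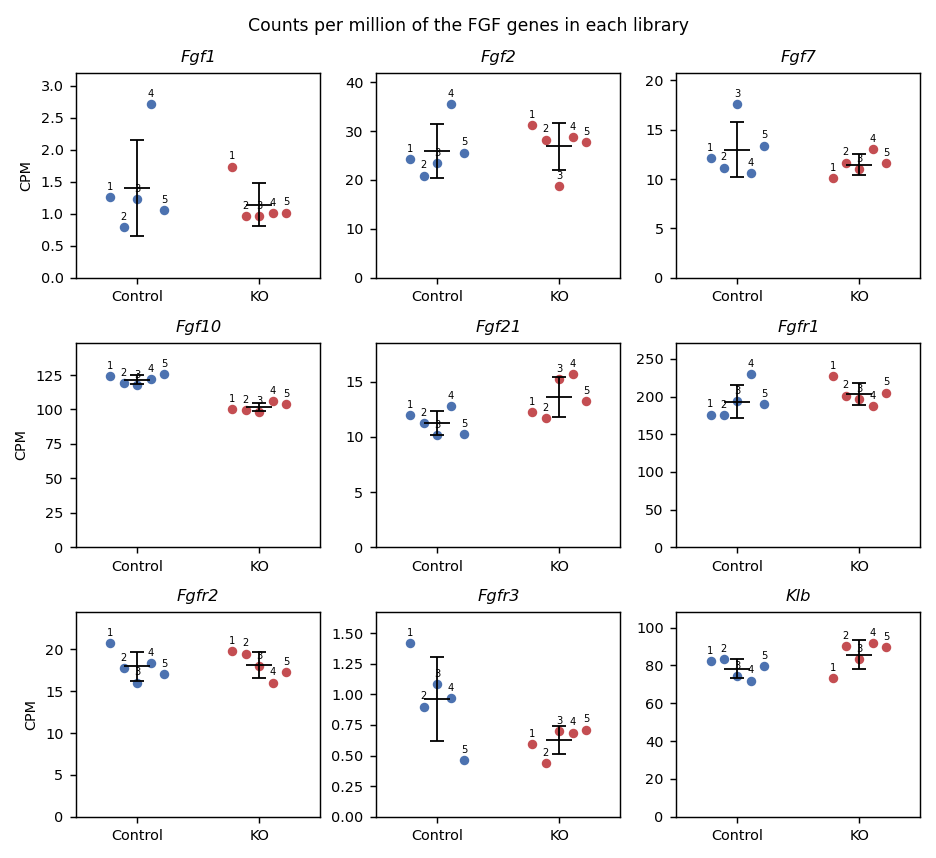
CPM of the 9 tested FGF genes in each library (points numbered by replicate; bar and whiskers, mean and SD of 5; each vertical axis starts at 0). Fgf10 is the gene whose KO libraries, 98.5 to 105.9 CPM, all lie below its Control libraries, 117.9 to 125.8 CPM; Control 4 and KO 1 are the highest of their groups for Fgf1, Fgf2 and Fgfr1 and the lowest for Fgf7 and Klb.

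The pair of libraries that stood apart thus shared a pattern across some of these genes, but not all, that did not follow genotype. In Control 4 and KO 1, Fgf1, Fgf2 and Fgfr1 were at the highest level of their group, while Fgf7 and Klb were at the lowest. Fgf10 did not follow it, since Control 4 was the third highest and KO 1 the third highest of their groups. Fgf21, Fgfr2 and Fgfr3 did not follow it either, as the pair was not at the same extreme of both groups. The pair was picked on all tested genes, and the share of those genes with such a pattern was not counted. The genes whose log2 CPM most resembled that of Fgfr1 over the 10 libraries were Nectin2 (Pearson r = 0.970), Sphk1 (r = 0.970) and Slc6a8 (r = 0.969), chosen from 12905 genes and with r of 0.969 to 0.970 after the group means were removed. For Klb they were Adhfe1 (r = 0.962), Prkar2b (r = 0.956) and Epb41 (r = 0.947), again with little change within groups. For Fgf10 they were Ctsh (r = 0.961), 9430037G07Rik (r = 0.957) and Dgkk (r = 0.957), but within groups r was 0.416, 0.767 and 0.389, so the likeness was lower once the difference between Control and KO was removed. These correlations describe 10 libraries that share depth and composition and carry no test.

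Levels were compared between genes per kilobase of exon (RPKM, that is CPM per 1000 bases), since transcripts differ in length. Fgf10 had the highest mean over the 10 libraries, 24.3 RPKM, followed by Fgfr1 at 20.1, Klb at 18.02, Fgf21 at 13.1, Fgf2 at 3.90, Fgf7 at 3.76, Fgfr2 at 1.75, Fgf1 at 0.233 and Fgfr3 at 0.111. Fgf10 exceeded Fgfr1 in 9 of 10 libraries, KO 1 being the exception, and the KO ranges of the pair overlapped. Fgfr1 exceeded Klb in 7 of 10 libraries, with overlapping ranges in both groups. Fgf2 and Fgf7 could not be ordered, each being higher in 5 of 10 libraries. Klb exceeded Fgf21 in all 10 libraries although their KO ranges met, and Fgf1 exceeded Fgfr3 in all 10 although their Control ranges met. Between Fgf21 and Fgf2, between Fgf7 and Fgfr2, and between Fgfr2 and Fgf1 the ranges did not overlap in either group. The order depends on the length taken, because with the longest annotated transcript in place of all exons Fgfr1 came first at 39.4 RPKM, above Fgf10 at 27.2 RPKM. By that length Fgf7 stood at 4.57, Fgf2 at 4.42 and Fgfr2 at 4.07 RPKM, so the gap between Fgf7 and Fgfr2 depends on it too. Percentiles of mean RPKM were taken among the tested genes that have an exon length in GENCODE M21. Fgf10 lay at percentile 86.6, Fgfr1 at 83.98, Klb at 82.1 and Fgf21 at 76.6, against 6.17 for Fgf1 and 1.69 for Fgfr3.

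**Figure D3:**
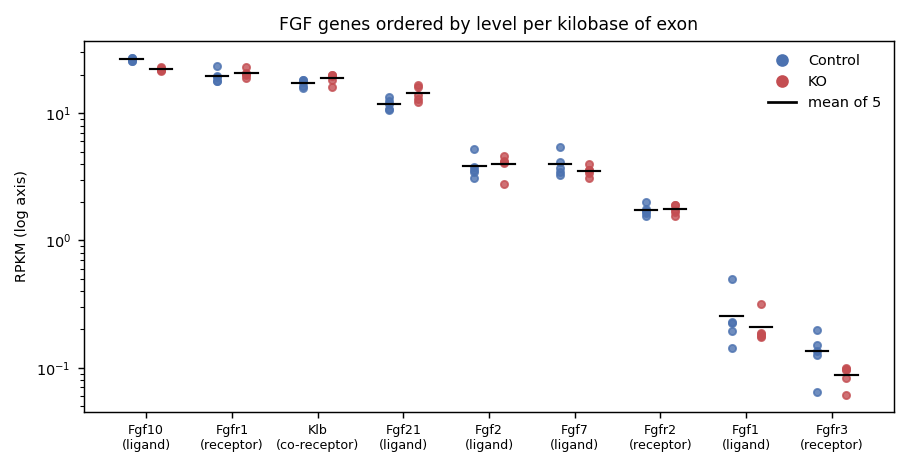
Level per kilobase of exon (RPKM, log axis) of 9 FGF genes in each library, ordered by the mean of 10 libraries (blue, Control; red, KO; bar, mean of 5). Fgf10, Fgfr1, Klb and Fgf21 lie above 10, Fgf2, Fgf7 and Fgfr2 between 1.55 and 5.41, and Fgf1 and Fgfr3 below 0.50; Fgfr4, at 0 in 9 of 10 libraries, is left out.

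Within the receptors, Fgfr1 made up 89.0% to 92.4% of the summed RPKM in Control and 91.3% to 92.1% in KO, and Fgfr2 made up 7.05% to 10.0% and 7.42% to 8.44%. Within the 5 ligands, Fgf10 made up 54.2% to 59.2% of the summed RPKM in Control and 48.0% to 51.7% in KO, with no overlap. Fgf21 made up 23.3% to 27.4% in Control and 29.4% to 36.7% in KO, also with no overlap. As shares of 1 sum, they rise for the other ligands where Fgf10 falls, and the CPM of Fgf21 itself overlapped between the groups. The ratio of Fgf10 to Fgf21, in RPKM, was 2.25 ± 0.223 (SD, n = 5) in Control, from 1.97 to 2.54, and 1.56 ± 0.188 (SD, n = 5) in KO, from 1.33 to 1.76. The ratio of Klb to Fgfr1 was 0.893 ± 0.146 and 0.921 ± 0.135 (SD, n = 5 each), with overlapping ranges. These shares and ratios restate the counts above, in which the call on Fgf21 did not pass, and carry no test of their own.

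**Figure D4:**
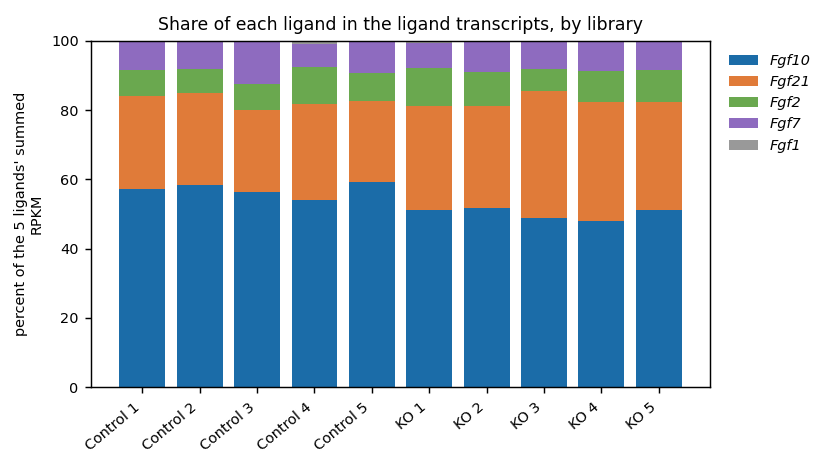
Share of each of the 5 ligands in their summed RPKM, as stacked bars, 1 bar a library. Fgf10 takes 54.2% to 59.2% in the Control libraries and 48.0% to 51.7% in the KO libraries, and Fgf21 takes 23.3% to 27.4% and 29.4% to 36.7%. The CPM of Fgf21 itself overlapped between the groups.

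The 89 other genes of the pathway, in 7 lists, were examined next. Of these, 65 were tested, 1 was called lower in KO (Sdc1), against a background of 1.85% of all tested genes, and 0 were called higher, against 0.308%. By the same edgeR test, 8 of the 65 had an unadjusted p under 0.05, as did 1682 of the 14270 genes tested. The median log2 fold change of the 65 genes was -0.0098, and 3 had all KO libraries below all Control libraries and 1 all above, against backgrounds of 2.66% and 1.32% of tested genes.

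The call was among the heparan sulfate carriers, of which 9 of 11 were tested, with a median of -0.04. Sdc1, which encodes the cell-surface proteoglycan syndecan-1, stood at a mean of 116.8 ± 5.34 CPM in the Control libraries and of 98.7 ± 5.28 CPM in the KO libraries (SD, n = 5 each), with no overlap. Its log2 fold change was -0.24 (SE 0.0468, edgeR adjusted p = 0.0128; 0.0609 without KO 2, which ends the call). The most abundant carrier per kilobase was Sdc4 (syndecan-4), at 62.6 ± 13.2 RPKM in Control and 73.0 ± 10.7 RPKM in KO (SD, n = 5 each), a log2 fold change of 0.22 with an edgeR adjusted p of 0.623, which became 0.27 with an adjusted p of 0.00514 without Control 4 and KO 1. Gpc1, Gpc3, Gpc4, Gpc6, Sdc2, Sdc3 and Hspg2 were tested and were not called.

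Of the enzymes that build and edit heparan sulfate, 13 of 16 were tested and 0 were called by edgeR, with 0 at an unadjusted p under 0.05 and log2 fold changes from -0.12 to 0.10. The smallest p values were those of Glce, the glucuronyl C5-epimerase (log2 fold change 0.10, edgeR adjusted p = 0.523), and Ndst2, an N-deacetylase and N-sulfotransferase (0.10, adjusted p = 0.586). Extl3, an initiator of the chain, had the highest level per kilobase, 39.97 RPKM in Control and 39.88 RPKM in KO.

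Of 17 other genes of the FGF family, not all of them secreted ligands, 4 were tested and 0 were called by edgeR, 1 with an unadjusted p under 0.05. That was Fgf13, an intracellular member of the family that is not secreted, at 4.13 CPM in Control and 2.92 CPM in KO (log2 fold change -0.50, SE 0.129, edgeR adjusted p = 0.0711). Fgf5 stood at 1.02 RPKM in Control and 1.40 RPKM in KO (log2 fold change 0.45, edgeR adjusted p = 0.454) and was the most abundant of this list per kilobase. Fgf3, Fgf4, Fgf6, Fgf8 and Fgf15 were at 0 counts in all 10 libraries. Fgf23, a known substrate of the Fam20c kinase, had 0.110 RPKM in Control and 0.114 RPKM in KO and was not tested.

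Of 8 other co-receptors and binding proteins, 5 were tested and 0 were called by edgeR, with 2 at an unadjusted p under 0.05. Flrt2, a transmembrane protein that binds FGF receptors, stood at 11.1 CPM in Control and 8.29 CPM in KO, with all KO libraries below all Control libraries (log2 fold change -0.42, SE 0.100, edgeR adjusted p = 0.0506). Fgfbp3, an FGF carrier protein, stood at 1.31 CPM in Control and 1.99 CPM in KO, with all KO libraries above (0.61, SE 0.160, adjusted p = 0.0801). Fgfrl1, a receptor without a kinase domain, was at 65.8 RPKM in Control and 68.3 RPKM in KO, above all 4 kinase receptors (log2 fold change 0.05, edgeR adjusted p = 0.728).

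Downstream of the receptors, all 18 signal transduction genes were tested and 0 were called by edgeR, with 0 at an unadjusted p under 0.05 and log2 fold changes from -0.13 to 0.11. The smallest p values were those of Sos2, a Ras exchange factor (0.11, edgeR adjusted p = 0.631), and Plcg1, phospholipase C gamma (-0.07, adjusted p = 0.638). Mapk3, which encodes the kinase Erk1, was the most abundant per kilobase, at 58.0 RPKM in Control and 58.1 RPKM in KO.

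Of 15 feedback inhibitors and response genes, 13 were tested and 0 were called by edgeR, 3 having an unadjusted p under 0.05, with a median log2 fold change of -0.11. Spry4, a Sprouty inhibitor induced by FGF signaling, stood at 37.8 CPM in Control and 32.6 CPM in KO with no overlap (log2 fold change -0.21, SE 0.0613, edgeR adjusted p = 0.115). Egr1, an immediate early response gene, had a log2 fold change of -0.24 (edgeR adjusted p = 0.216). Fosl1, a response gene with 57.2% of its exon bases shared with Ccdc85b on the other strand, was the most abundant per kilobase, 13.3 ± 7.64 RPKM in Control and 17.5 ± 7.24 RPKM in KO (SD, n = 5 each; edgeR adjusted p = 0.788). Spry3 was not analysed here. Of the canopy genes, whose products are named for effects on FGF signaling, 3 of 4 were tested and 0 were called by edgeR, with 0 at an unadjusted p under 0.05. The smallest p values were those of Cnpy3 (-0.12, edgeR adjusted p = 0.467) and Cnpy4 (-0.04, adjusted p = 0.917), and the most abundant was Cnpy2, at 44.9 RPKM in Control and 45.1 RPKM in KO.

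**Figure D5:**
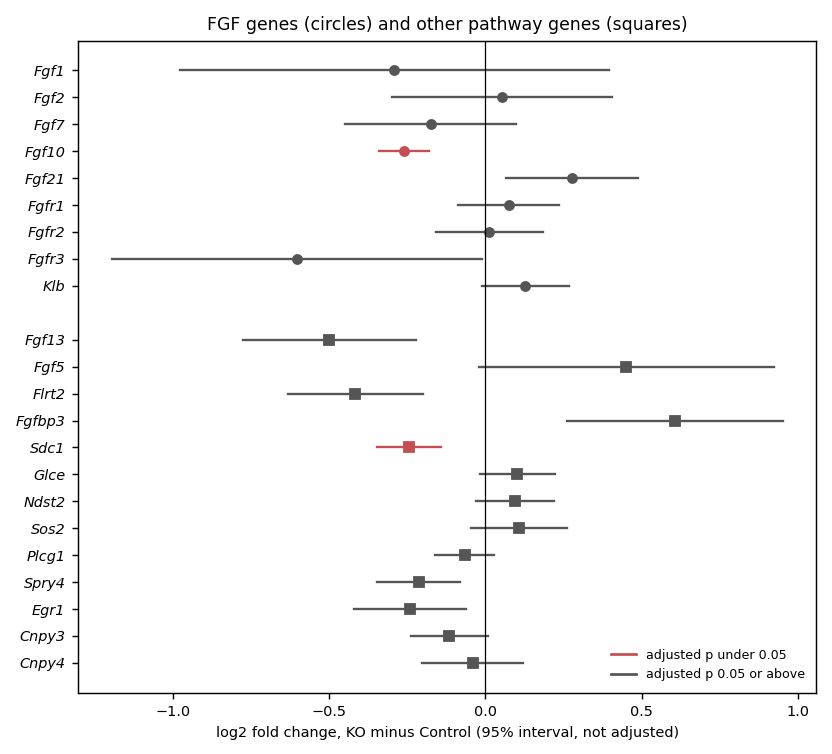
Log2 fold change (KO minus Control) with its unadjusted 95% interval for the 9 tested FGF genes (circles) and for the 13 pathway genes that were called or, in lists with no call, had the smallest p values (squares). Fgf10 at -0.26 and Sdc1 at -0.24, in red, had an adjusted p under 0.05; the others, in grey, did not.

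Some exons of these genes are shared with other genes, and the library kit does not mark strand, so reads of such stretches cannot be assigned by strand. Of the exon bases of Fgf10, 2.67% lie opposite Gm16263, an antisense gene counted at 4.83 CPM in Control and 3.61 CPM in KO. Of those of Fgf2, 9.44% lie opposite Nudt6, counted at 7.95 CPM in Control and 7.91 CPM in KO. Of those of Fgfr2, 3.04% are shared with Ctbp2 on the same strand, and of those of Fgfr3, 13.9% lie opposite G630022F23Rik, which had at most 1 count in any library.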

How the data were processed

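RNA-seq of 5 Control and 5 KO libraries was analysed. The paper's figure legend for this comparison gives a smaller n per group than was deposited, and does not say which libraries were used. The authors made libraries with a SMARTer low-input kit and Nextera XT, aligned the paired reads to GRCm38.p6 by STAR, assigned fragments to genes with featureCounts and deposited raw counts per gene, with no normalization; the labels name the build mm10. The kit does not mark strand. The annotation release is not given in the sources used here, and 4675 of 56748 identifiers are not in GENCODE M21, which gave exon lengths and positions, so levels per kilobase are approximate. Promoters are from RefSeq (GRCm38.p6), with entries for 8 of the 10 genes.

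The deposited counts were filtered in edgeR 4.0.16 under R 4.3.3 (filterByExpr, minimum count 10), scaled by TMM and fitted over all 14270 genes kept (quasi-likelihood, robust; Benjamini-Hochberg limit 0.05). The study's methods name another test, DESeq2 (1.42.0), which was an alternative, as was limma 3.58.1 voom. Log2 CPM used a prior count of 2. CPM and RPKM were computed with TMM-scaled totals. Standard errors are the log2 fold change over the square root of F. Exact permutation tests were two-sided over 252 assignments. The fit was tested on simulated data, in which edgeR recovered 83.8% of 2-fold changes and 61.2% of the smaller changes simulated. Of its calls, 4.03% were on unchanged genes. For the alternatives this share was 10.5% with DESeq2 and 4.05% with voom, so the DESeq2 calls were the less strict. Changes as small as that of Fgf10 were not simulated.

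The FGF genes and all lists were chosen with earlier results of these data known. Named from each list were genes past the limit (at most 6), or otherwise the 2 with the smallest p, and the gene with the highest level; genes most like Fgf10, Fgfr1 and Klb were the 3 with the highest Pearson r among genes with mean log2 CPM of at least 0. Sdc2, Sdc3, Gpc1, Gpc3, Gpc4, Gpc6, Hspg2, Fgf23 and the genes at 0 were named after their values were seen, as were the markers. The remaining marker lists gave 1 of 4 lymphatic endothelial genes called lower (Flt4) and 0 calls among 4 Schwann, 1 tested mesothelial and 1 tested myogenic gene. The mean log2 CPM of the lymphatic endothelial list was at least 2.96 in Control and at most 2.92 in KO, while its summed CPM overlapped. Libraries of a group differed by more than sampling noise (chi-square of at least 3.52 per degree of freedom). The table held 0 columns of other samples.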

Additional observations from a re-analysis of the deposited data

Results flagged for a closer look

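In 3 of 18 groups of 5 libraries (9 FGF genes in 2 genotypes), 1 library lay far from the others by Dixon's ratio (critical value 0.71); chance gives about 0.9 such groups. Fgf1 in Control 4 was at 2.70 CPM, against 0.787 to 1.26 CPM in the other Control libraries (ratio 0.755). Fgf1 in KO 1 was at 1.73 CPM, against 0.959 to 1.02 CPM in the other KO libraries (ratio 0.926). These values rest on 56 and 35 counts, and both are from the libraries that stood apart along the first principal component. Fgf2 in KO 3 was at 18.7 CPM, against 27.7 to 31.2 CPM in the other KO libraries (ratio 0.718), on 429 counts. No explanation of these values was tested.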

How the results depend on the processing

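The call on Fgf10 was kept in 18 of 18 other fits, with adjusted p from 4.2e-08 (DESeq2) to 0.00993 (with a replicate block), and 0 other FGF genes were called in any (Fgfr3 was tested in 17). The fit without robust estimation and the fit without Control 4 and KO 1 were added after seeing the data. Genes called lower in the pathway lists, 1 in the reported fit, were 3 with DESeq2 and with voom (Sdc1, Flrt2 and Fgf13), 2 with RLE size factors, without a filter and with at least 1 CPM in 5 libraries (Sdc1 and Flrt2), 2 without Control 4 and KO 1 (Sdc1 and Fgf13), and 0 to 3 when 1 library was left out, 0 being without KO 2. Those called higher, 0 in the reported fit, were 1 with voom (Fgfbp3), 2 without Control 4 and KO 1 (Sdc4 and Fosl1), and 0 to 1 when 1 library was left out (Fgfbp3, without Control 4). Over all genes, 264 were lower, 175 (without KO 5) to 335 when 1 library was left out, and 44 were higher, against 125 with DESeq2, 111 with voom, 67 without a filter, 157 without Control 4 and KO 1, and 21 (without KO 5) to 118 (without Control 4) when 1 library was left out. With the replicate number as a block, 221 were lower and 26 higher, and Fgf10 and Sdc1 were still called. The labels do not say whether same-numbered libraries share more than a number. The correlations of their deviations were -0.25 to 0.26, and 1 of 5 correlated best with its own number. Leaving out 1 library moved the log2 fold change across 0 for Fgf1 (-0.48 to 0.086), Fgf2 (-0.016 to 0.19) and Fgfr2 (-0.022 to 0.067), and Fgfr2 was at -0.0031 with voom and -0.0092 without Control 4 and KO 1; the cause was not tested. Depth limits Fgfr3 and Fgf1, with 10 to 56 counts a library.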
